A study of Mus musculus with 8 samples.

Results

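The 8 genes described here encode the CD8 co-receptor (Cd8a, Cd8b1) and proteins of cytotoxic lymphocytes (Prf1, Gzmb, Ctsw, Nkg7, Fasl, Ccl5), measured in CD4 T cells labelled as Bcl6 knockout (KO) or wild type (WT). They were chosen by name, as 8 of the 19938 genes with a probe set of their own on the array, and each was represented by the single probe set whose only annotated symbol was that gene. The tested samples were 4 KO-labelled arrays of cells from mice with a T cell-specific conditional Bcl6-/- genotype, set against 4 WT-labelled arrays of cells from wild-type mice. In both groups naïve CD4 T cells were sorted and then activated for 24 hours through CD3 and CD28 in the presence of IL6 and IL21, while antibodies neutralised IL-4, IFNg and TGFb, and the labels call the resulting cells follicular helper T cells; markers of that state were not analysed here beyond Bcl6. The Cre driver, the strain and the age of the mice are not given in the sources used here, and the labels do not tie the arrays to individual mice. The p-values therefore cover the spread from array to array, part of which may be technical.

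CD8 T cells and NK cells kill by releasing granules onto a target cell. Perforin opens the target's membrane and granzymes enter and start its death, while Fas ligand on the killer's surface can start death through the receptor Fas. CD4 T cells normally lose the CD8 co-receptor in the thymus, when the factor Zbtb7b (ThPOK) secures the CD4 fate and Runx3 secures the CD8 fate, yet activated CD4 T cells can still make some granule proteins. Bcl6 is a transcriptional repressor needed for follicular helper T cells.

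Values are log2 signals after RMA, so a difference of 1 is a 2-fold change, and differences are KO-labelled minus WT-labelled. None of the 8 genes passed the threshold, a limma adjusted p under 0.05 over 11926 tested genes, where 1.32% of all tested genes passed (0.646% as rises and 0.671% as falls). Of the 8, 3 had an unadjusted limma p under 0.05, against 16.6% of all tested genes. These were Nkg7, Ctsw and Prf1, in which all 4 KO-labelled values lay below all 4 WT-labelled values. A gap of that kind and direction was seen in 7.66% of tested genes, and a gap in the other direction, seen in none of the 8, in 3.1%. Gzmb had the opposite sign, and Cd8a, Cd8b1, Fasl and Ccl5 differed by less than 0.1. The median difference of the 8 genes was -0.05, and that of all tested genes was -0.02.

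Over the tested genes, which are not replicates, r between any pair of arrays was 0.986 to 0.998. KO replicate 1 was the least regular array: limma's array weight was 0.176 for it, 0.901 to 2.08 for the other 3 KO-labelled arrays and 0.617 to 3.32 for the WT-labelled arrays. Bcl6 itself, measured by a single probe set, was higher in the KO-labelled arrays, at 9.08, 9.15, 9.18 and 9.19, against 8.61, 8.91, 8.78 and 8.79 in the WT-labelled arrays (limma adjusted p = 0.0303, and 0.0104 to 0.11 with 1 array left out). The sources used here do not place this probe set inside or outside the deleted part of the gene, so its level is no check of the labels, and every direction given is that of the arrays as labelled. The cells carried their labelled lineage marker, Cd4, at 12.45 to 12.53 in KO-labelled and 12.38 to 12.56 in WT-labelled arrays (limma adjusted p = 0.979). In bulk samples, fewer cells of a type and less RNA per cell cannot be told apart.

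Cd8a encodes the CD8 alpha chain, which pairs with itself or with the beta chain and binds MHC class I. Its log2 signal was 7.59, 7.11, 7.06 and 7.38 in KO-labelled replicates 1 to 4, and 7.05, 7.32, 7.73 and 7.21 in WT-labelled replicates 1 to 4. The groups overlapped over nearly their whole range, and the highest values were those of WT replicate 3 and KO replicate 1. The difference was -0.04 ± 0.154 (SE; limma adjusted p = 0.937). Cd8a lay near background: in all 8 arrays it exceeded the 40th percentile, a limit of 6.91 to 7.15, and in 1 of them it exceeded the 50th.

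Cd8b1 encodes the CD8 beta chain, which reaches the cell surface only with the alpha chain. It stood at 9.35, 9.67, 9.63 and 9.83 in the KO-labelled arrays and at 9.54, 9.63, 9.75 and 9.44 in the WT-labelled arrays. Both the lowest and the highest of the 8 values, from replicates 1 and 4, were KO-labelled, so the WT-labelled values fell inside the KO-labelled range. The difference was 0.03 ± 0.101 (SE; limma adjusted p = 0.932). The signs of both CD8 chains turned in single fits with 1 array left out, with differences of -0.14 to 0.09 for Cd8a and -0.04 to 0.12 for Cd8b1.

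**Figure D1:**
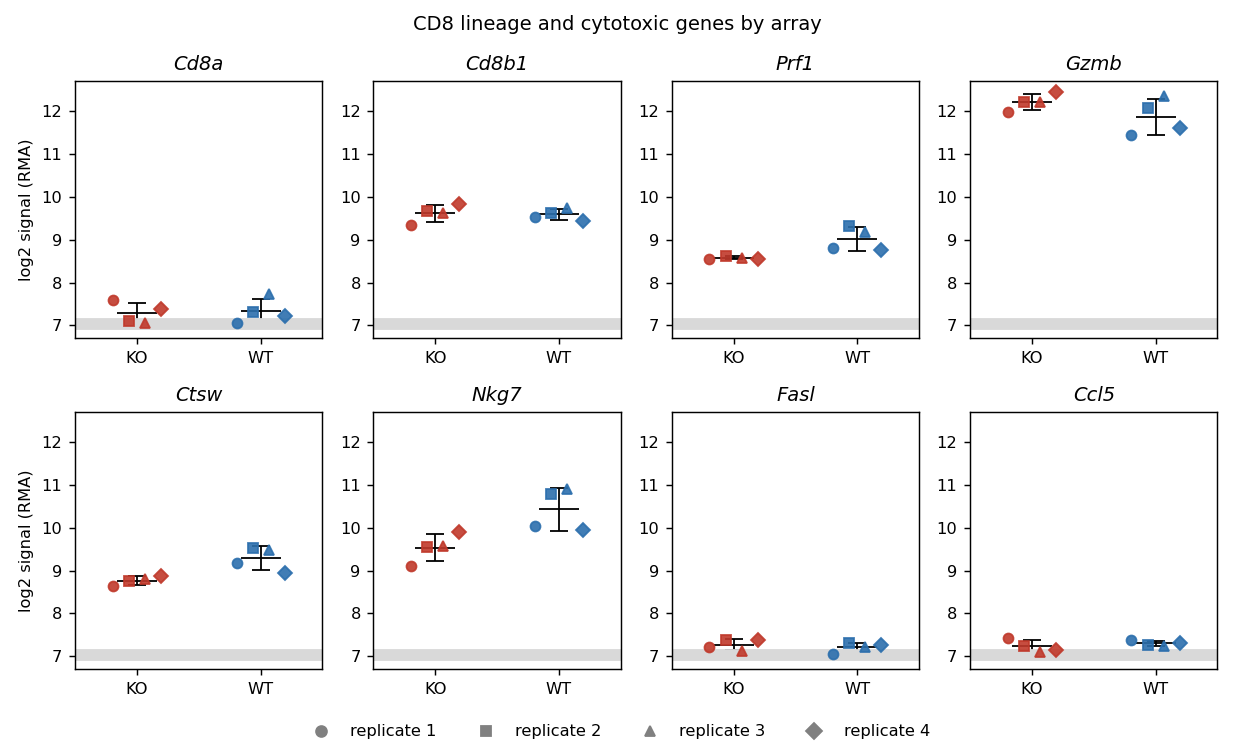
Log2 signal (vertical axis, RMA) of the 8 genes in each KO-labelled (red, left) and WT-labelled (blue, right) array; symbols give the replicate, bars the mean ± SD (n = 4 each), and the grey band the 40th percentile of the arrays, 6.91 to 7.15. The groups are separate for Prf1, Ctsw and Nkg7 and overlap for the other 5 genes, of which Cd8a, Fasl and Ccl5 have means just above the band and some single values within it.

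Among the 8 genes, Nkg7 had the largest difference. Nkg7 encodes a membrane protein of cytotoxic granules that takes part in their release. Its log2 signal was 9.11, 9.55, 9.58 and 9.89 in the KO-labelled arrays, against 10.05, 10.79, 10.91 and 9.95 in the WT-labelled arrays. The groups did not overlap, but KO replicate 4 and WT replicate 4 were close together, and WT replicates 2 and 3 were the high samples. The mean was 9.53 ± 0.321 in KO-labelled and 10.42 ± 0.495 in WT-labelled arrays (SD, n = 4 each), a difference of -0.89 ± 0.233 (SE; limma adjusted p = 0.0947), 1.86-fold lower. The exact permutation p was 0.0286, two-sided, the smallest that 4 against 4 can give, and it was not adjusted for the number of genes.

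Ctsw encodes cathepsin W, a cysteine protease found in CD8 T cells and NK cells. It stood at 8.64, 8.76, 8.80 and 8.87 in the KO-labelled arrays and at 9.18, 9.53, 9.49 and 8.95 in the WT-labelled arrays. The groups did not overlap, and WT replicate 4, the lowest of its group, was nearest to the KO-labelled values. The difference was -0.52 ± 0.12 (SE; limma adjusted p = 0.0696, exact permutation p = 0.0286), 1.43-fold lower. Its p ranked 256th of 11926, ahead of Nkg7 at 432nd and Prf1 at 496th. Ctsw passed the threshold without WT replicate 4 (limma adjusted p = 0.0244, difference -0.63; 0.897% of all tested genes passed) and in none of the other 7 fits with 1 array left out, in which the limma adjusted p reached 0.208.

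Prf1 encodes perforin, the pore-forming protein of the granule. It was nearly level in the KO-labelled arrays, at 8.55, 8.63, 8.58 and 8.55, against 8.80, 9.33, 9.18 and 8.75 in the WT-labelled arrays. The KO-labelled values spanned 0.08 and the WT-labelled values 0.58, with replicates 2 and 3 again the high WT-labelled samples. The difference was -0.44 ± 0.118 (SE; limma adjusted p = 0.102, exact permutation p = 0.0286), 1.35-fold lower. In the 8 fits with 1 array left out the difference stayed between -0.53 and -0.33, with limma adjusted p of 0.0729 to 0.249. When limma weighted the arrays by their regularity, Ctsw, Nkg7 and Prf1 all passed, in a fit where 16.6% of all tested genes did. With an intensity trend and a robust prior together Ctsw passed, with 2.97% of all tested genes, and at a threshold of 0.1 Ctsw and Nkg7 passed, with 3.92%.

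Gzmb encodes granzyme B, the main death-inducing protease of the granule, and the sign of its difference was opposite to that of Nkg7, Ctsw and Prf1. It stood at 11.98, 12.22, 12.21 and 12.44 in the KO-labelled arrays and at 11.45, 12.06, 12.35 and 11.60 in the WT-labelled arrays. WT replicates 1 and 4 lay below every KO-labelled array, whereas WT replicate 3 lay above 3 of the 4, so the groups overlapped. The difference was 0.35 ± 0.182 (SE; limma adjusted p = 0.385, exact permutation p = 0.2). It stayed positive in all 8 fits with 1 array left out (0.21 to 0.51, limma adjusted p of 0.176 to 0.664).

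**Figure D2:**
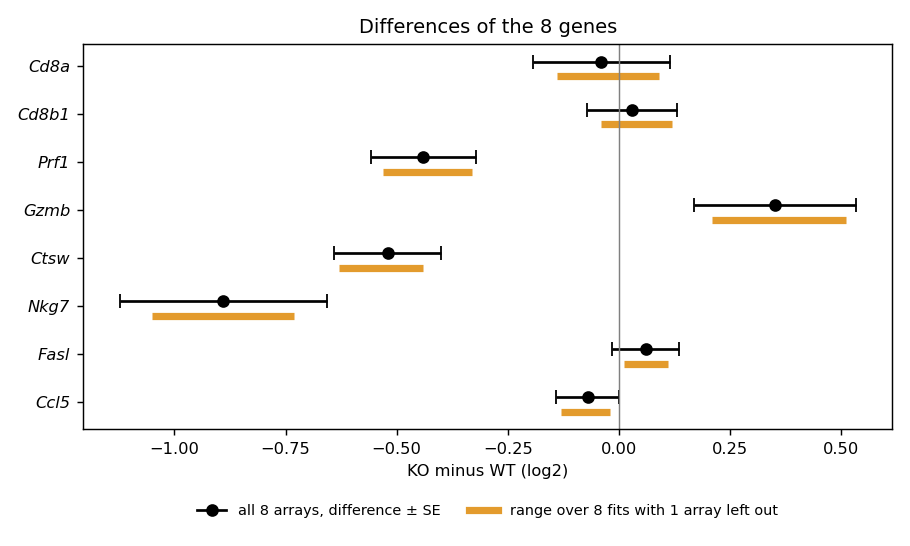
Difference between KO-labelled and WT-labelled arrays (horizontal axis, log2) for each of the 8 genes; points are the limma estimate over 8 arrays with its SE, and orange bars the range over the 8 fits that each left 1 array out. Nkg7, Ctsw and Prf1 lie below 0 and Gzmb above 0 over the whole orange bar, while the bars of Cd8a and Cd8b1 cross 0.

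The order of the arrays within a group was partly shared between granule genes. Among the WT-labelled arrays, replicates 2 and 3 were the highest pair for Nkg7, Ctsw, Prf1 and Gzmb, and also for Cd8a and Cd8b1. For Ccl5 they were the lowest pair. Among the KO-labelled arrays, replicate 4 was the highest and replicate 1 the lowest for Nkg7, Ctsw, Gzmb and Cd8b1, but for Prf1, which spanned 0.08 there, replicate 2 was the highest and replicate 4 the lowest. Within the WT-labelled group Nkg7 spanned 0.96 and Gzmb 0.90.

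The distance between Gzmb and Nkg7 on the same array varied less. Gzmb minus Nkg7 was 2.87, 2.67, 2.63 and 2.55 in the KO-labelled arrays, against 1.40, 1.27, 1.44 and 1.65 in the WT-labelled arrays. Its mean was 2.68 ± 0.136 in KO-labelled and 1.44 ± 0.158 in WT-labelled arrays (SD, n = 4 each), 1.24 apart. The distance itself has no meaning, since probe sets differ in brightness, and it is the change between groups that can be read. Gzmb minus Ctsw was 3.34 to 3.57 in KO-labelled and 2.27 to 2.86 in WT-labelled arrays, and Gzmb minus Prf1 was 3.43 to 3.89 and 2.65 to 3.17 in the same order. Neither pair overlapped between groups, whereas Nkg7 minus Prf1, Nkg7 minus Ctsw and Ctsw minus Prf1 did. These pairs were chosen after the values were seen and received no test, so their gaps do not establish unequal change. Such a distance also does not tell which gene changed. The Gzmb pairs set a gene with a positive difference against genes with negative ones, which widens the gap between groups. How many pairs of all tested genes have such a gap was not counted.

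**Figure D3:**
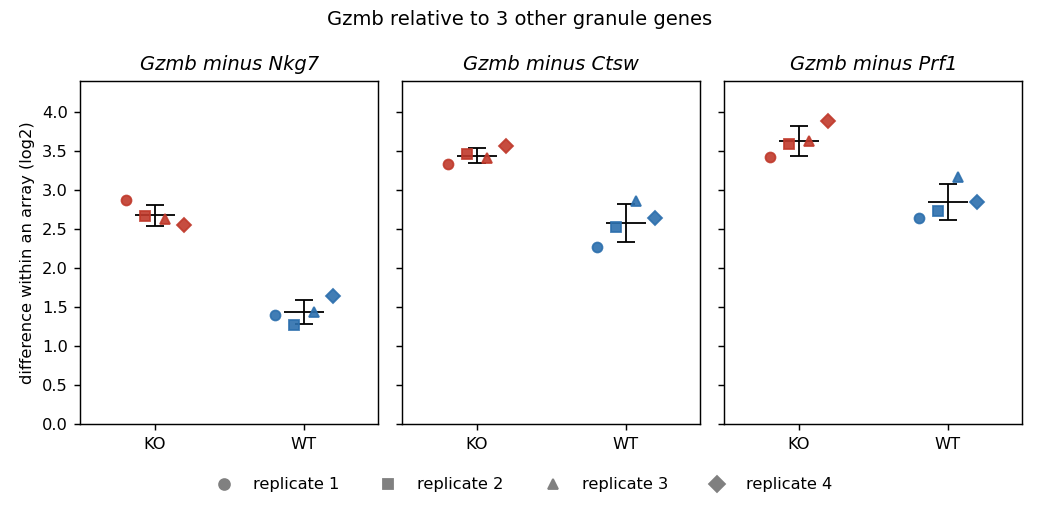
Log2 signal of Gzmb minus that of Nkg7, Ctsw or Prf1 on the same array (vertical axis) in KO-labelled (red, left) and WT-labelled (blue, right) arrays, with the mean ± SD (n = 4 each) and symbols for the replicate. For Nkg7 the KO-labelled arrays lie at 2.55 to 2.87 and the WT-labelled arrays at 1.27 to 1.65. The pairs were chosen after the values were seen.

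The stretches before the transcription start of Nkg7, Prf1 and Gzmb are shown because the first pair had separate groups and the third had the opposite sign. They come from RefSeq (GRCm38.p6), whose promoter table matched 5 of the 8 genes (Cd8a, Fasl, Gzmb, Nkg7 and Prf1), and they stop where the annotated gene begins, which for Prf1 is before the start used for its window. Capitals mark letters of 5 motifs searched on both strands.
Nkg7, chr7:43436888-43437137, plus strand: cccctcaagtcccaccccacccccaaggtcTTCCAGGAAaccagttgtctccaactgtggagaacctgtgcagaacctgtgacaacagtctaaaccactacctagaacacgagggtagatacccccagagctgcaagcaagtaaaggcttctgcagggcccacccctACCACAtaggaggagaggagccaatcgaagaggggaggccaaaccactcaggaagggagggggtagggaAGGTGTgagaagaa
Prf1, chr10:61297586-61297750, plus strand: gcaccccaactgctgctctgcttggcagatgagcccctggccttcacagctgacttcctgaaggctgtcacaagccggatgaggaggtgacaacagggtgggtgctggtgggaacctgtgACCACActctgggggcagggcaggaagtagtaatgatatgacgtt
Gzmb, chr14:56262335-56262584, minus strand: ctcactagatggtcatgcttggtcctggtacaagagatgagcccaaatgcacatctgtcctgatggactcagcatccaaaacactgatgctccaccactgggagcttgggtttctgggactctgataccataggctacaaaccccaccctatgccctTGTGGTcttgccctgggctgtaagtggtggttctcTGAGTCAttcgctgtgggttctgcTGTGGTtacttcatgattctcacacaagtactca

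The search covered windows of 300 bases, 250 before and 50 after the start, and counted positions from the start at 0. The Runx letters TGTGGT, held by 16.8% of all 32851 windows, were found at -83 in Nkg7, at -130 in Prf1 and at -93 and -34 in Gzmb. The T-box letters AGGTGT (13.7% of windows) were found at -14 in Nkg7 and, past the Prf1 stretch printed, at -24 in Prf1, where they overlap the E-box letters CACCTG (20.2% of windows) on the other strand, and were not among the letters of the Gzmb window. The letters TTCNNNGAA, which suit Bcl6 and STAT factors and are held by 8.3% of windows, were found at -220 in Nkg7 and, past the stretch printed, at 37 in Gzmb. The AP-1 letters TGACTCA (5.2% of windows) were found at -58 in Gzmb. None of the 5 motifs was in the Cd8a or Fasl window. A match describes the letters and is no evidence of binding.

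Fasl and Ccl5 lay near background. Fasl, the gene of Fas ligand, stood at 7.22, 7.38, 7.12 and 7.37 in the KO-labelled arrays and at 7.06, 7.31, 7.22 and 7.26 in the WT-labelled arrays, with overlapping groups (0.06 ± 0.0751, SE; limma adjusted p = 0.775). Ccl5, a chemokine of memory and effector CD8 T cells, stood at 7.43, 7.25, 7.11 and 7.15 in the KO-labelled arrays and at 7.37, 7.27, 7.25 and 7.31 in the WT-labelled arrays (-0.07 ± 0.0707, SE; limma adjusted p = 0.73). Neither reached the 50th percentile of any array. Of 1027 olfactory receptor genes, which T cells are not known to use, 95% had a mean signal below 6.88, but their highest was 9.43. Of 19 genes of other tissues such as Alb and Ins2, 16 lay below Cd8a, Fasl and Ccl5 and 3 above them, so no expression can be read from the signals of these 3 genes.

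The other granzymes gave no measured level. None of the 9 on the array (Gzma, Gzmc, Gzmd, Gzme, Gzmf, Gzmg, Gzmk, Gzmm and Gzmn) was tested, and their mean signals were 4.69 to 6.93. Genes that pack, activate, restrain or release granule proteins were well measured, with 15 of 16 tested, and none passed. Their median difference was 0.00, 2 lay with all KO-labelled values above and 1 with all below (10.8% of all tested genes had separate groups). Vamp7, a vesicle fusion protein, had the smallest p (0.34 ± 0.0701, SE; limma adjusted p = 0.0514), at 10.38 to 10.53 in KO-labelled and 9.93 to 10.22 in WT-labelled arrays.

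Death ligands, their receptors and adaptors did not pass either, with 11 tested and a median difference of -0.02. Tnfsf10, which encodes the death ligand TRAIL, had the smallest p (-0.25 ± 0.0679, SE; limma adjusted p = 0.101), at 7.66 to 7.89 in KO-labelled and 7.88 to 8.11 in WT-labelled arrays.

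Of the chemokines and Ccl5 receptors, 3 of 7 on the array were tested and none passed. Xcl1, the chemokine lymphotactin made by CD8 T and NK cells, was 7.49, 7.48, 7.15 and 7.46 in the KO-labelled arrays, against 8.07, 8.85, 8.93 and 7.68 in the WT-labelled arrays. The groups were separate and the high samples were again WT replicates 2 and 3 (-0.99 ± 0.249, SE; limma adjusted p = 0.0861). The KO-labelled values of Xcl1 lay near background, below those of Apoa1, a gene of other tissues, at 7.52 to 7.84 in the same arrays. No expression can be read from the KO-labelled signals of Xcl1, so the size of its fall is uncertain. Xcl1 passed without WT replicate 4 (limma adjusted p = 0.0322; 0.897% of all tested genes passed). It passed in no other fit with 1 array left out, in which the limma adjusted p reached 0.249. The other tested chemokines, Ccl3 and Ccl4, named after their values were seen, had positive differences like Gzmb, of 0.40 ± 0.188 and 0.25 ± 0.106 (SE), with overlapping groups (limma adjusted p = 0.332 and 0.264).

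Among factors of the CD4 and CD8 choice, Tox alone of 16 tested genes passed, as a fall. Tox, a nuclear factor needed for CD4 lineage development in the thymus, stood at 9.87, 9.98, 9.89 and 10.01 in the KO-labelled arrays, against 10.32, 10.47, 10.39 and 10.13 in the WT-labelled arrays (-0.39 ± 0.0734, SE; limma adjusted p = 0.0423). Its call was lost in the fits that left out any single array other than KO replicate 1 or WT replicate 4, with limma adjusted p up to 0.146. The list held 12 negative and 4 positive differences, with a median of -0.09, where 7003 of all 11926 tested genes had negative differences. Runx3, Zbtb7b and Gata3 were named after their values were seen, and none of them passed. Runx3 differed by -0.17 ± 0.0599 (SE; limma adjusted p = 0.194) and Zbtb7b by -0.05 ± 0.0436 (SE, limma adjusted p = 0.645). Gata3 had the highest difference of the list, 0.43 ± 0.124 (SE, limma adjusted p = 0.118). All its KO-labelled values lay above all WT-labelled values, a gap seen in 3.1% of tested genes.

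Among 12 tested factors of the cytotoxic program, Id2 passed as a rise, and the median difference was 0.00. Id2, an inhibitor of E proteins that effector CD8 T cells and NK cells need, stood at 12.53 to 12.62 in KO-labelled and 12.22 to 12.37 in WT-labelled arrays (0.25 ± 0.0486, SE; limma adjusted p = 0.0462). The call was lost in the fits that left out any single array other than KO replicate 1 (limma adjusted p of 0.0203 to 0.143). Eomes, a T-box factor of CD8 and NK cells, was 7.29, 7.57, 7.31 and 7.41 in the KO-labelled arrays, against 7.36, 8.03, 8.02 and 7.64 in the WT-labelled arrays. WT replicates 2 and 3 were the high samples and the groups overlapped (-0.37 ± 0.141, SE; limma adjusted p = 0.232). The KO-labelled values of Eomes lay near background, each below that of Apoa1 on the same array (7.52 to 7.84). No expression can be read from these KO-labelled signals.

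**Figure D4:**
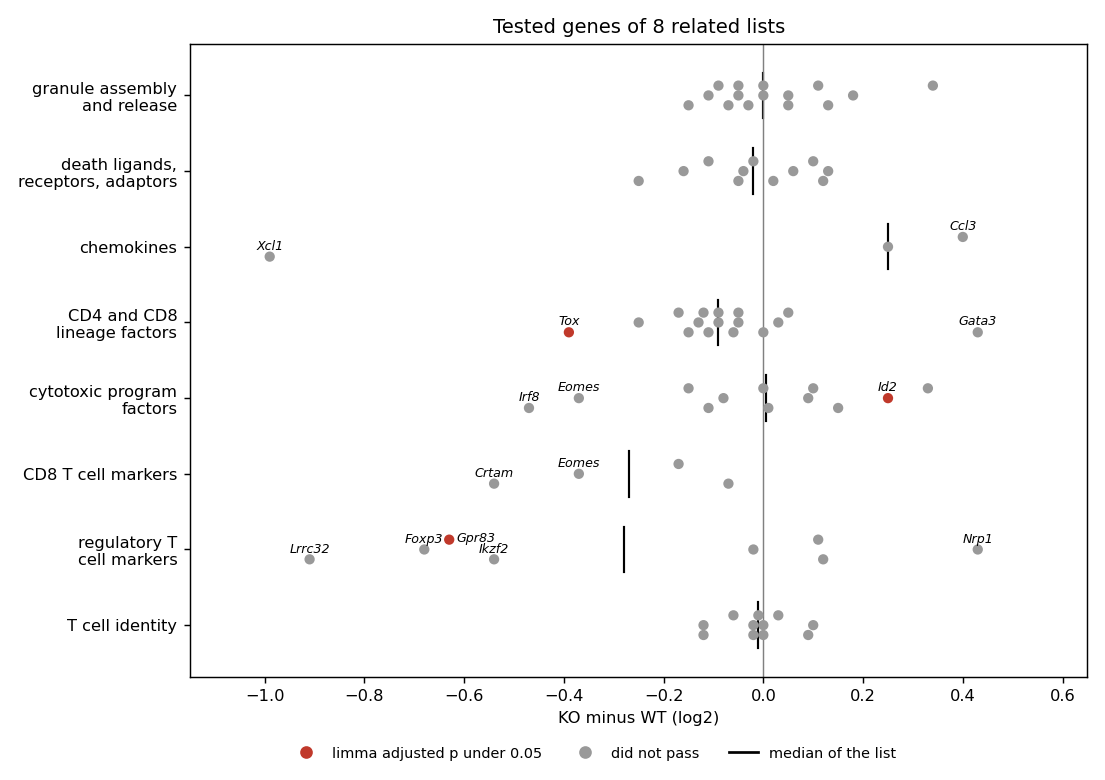
Difference between KO-labelled and WT-labelled arrays (horizontal axis, log2) for each tested gene of 8 related lists (rows); red points passed a limma adjusted p of 0.05, grey points did not, and black lines mark the list medians. Tox, Id2 and Gpr83 are the red points, and the CD8 T cell and regulatory T cell markers have the lowest medians.

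Of the markers of other cell types, Gpr83 was the single gene that passed. All 4 tested CD8 T cell markers had negative differences (median -0.27) and none passed. Negative differences were the more common sign, seen in 7003 of all 11926 tested genes, and Eomes and Runx3 also belong to other lists. The mean over the 8 listed markers was 7.25 to 7.32 in KO-labelled and 7.31 to 7.61 in WT-labelled arrays. Crtam, a receptor of activated CD8 T and NK cells, stood at 9.09, 9.69, 9.57 and 9.62 in the KO-labelled arrays, against 9.94, 10.26, 10.03 and 9.91 in the WT-labelled arrays. The groups were separate (-0.54 ± 0.129, SE; limma adjusted p = 0.0763). Crtam passed without KO replicate 1 (limma adjusted p = 0.0199), a fit in which 782 of 11926 tested genes passed. In no other fit with 1 array left out did Crtam pass, and the limma adjusted p reached 0.232.

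Regulatory T cell markers had a median difference of -0.28 over 8 tested genes, of which 5 differences were negative and 3 positive. In 4 of the 8 all KO-labelled values lay below all WT-labelled values (7.66% of all tested genes) and in 1, Il2ra, all lay above (3.1%). Their mean over 9 genes was 8.74 to 8.78 in KO-labelled and 8.87 to 9.12 in WT-labelled arrays. Gpr83, a G protein-coupled receptor of these cells, passed as a fall (-0.63 ± 0.066, SE; limma adjusted p = 0.00333). The other markers given here were named after their values were seen, and none of them passed. The 3 positive differences were those of Nrp1 (0.43, limma adjusted p = 0.202), Ikzf4 (0.12, 0.3) and Il2ra (0.11, 0.268), which encodes a chain of the IL-2 receptor. Foxp3 is the factor that defines regulatory T cells, and Lrrc32 encodes a surface protein of activated ones. Foxp3 was 7.76, 7.51, 7.62 and 7.58 in the KO-labelled arrays, against 8.21, 8.43, 8.70 and 7.84 in the WT-labelled arrays (limma adjusted p = 0.0648). Lrrc32 was 7.42 to 7.46 in KO-labelled and 7.72 to 8.87 in WT-labelled arrays (limma adjusted p = 0.0514). The KO-labelled means were near background, at 7.62 for Foxp3 and 7.44 for Lrrc32, against 7.65 for Apoa1, a gene of other tissues. No expression can be read from the KO-labelled signals of Foxp3 and Lrrc32, so the size of their falls is uncertain.

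The defining NK cell markers Ncr1 and Klrb1c were at or below 5.92 in all 8 arrays, with differences of 0.03 and 0.04. Klrd1 and Klrc1 of the same list, also untested, differed by -0.39 and -0.33 at mean signals of 5.68 and 5.28. The mean over 13 NK cell markers was 6.11 to 6.21 in KO-labelled and 6.15 to 6.32 in WT-labelled arrays. Of the NK, gamma delta, B and myeloid lists, 3 of 13, 2 of 3, 2 of 9 and 3 of 13 genes on the array were tested and none passed; the smallest p belonged to Eomes, Il23r (0.19, limma adjusted p = 0.449), Ighm (0.14, 0.561) and Cst3 (-0.16, 0.118). General T cell genes were level, with 11 tested, a median difference of -0.01 and no call (Zap70 had the smallest p, limma adjusted p = 0.25), and of 5 tested genes of other tissues none passed (Krt10, limma adjusted p = 0.544). The part of any of these cell types in the differences of Nkg7, Ctsw and Prf1 was not tested.

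The genes most like each of the 8 in pattern were taken as the 3 tested genes with the highest Pearson r over the same 8 arrays, as a description. For Nkg7 these were Lgals3 (r = 0.992), Uvssa (0.988) and Agap2 (0.98), for Ctsw Rasgef1a (0.987), Pygm (0.984) and Zfp335 (0.975), and for Prf1 Cep85 (0.992), Rinl (0.984) and Nfkbid (0.975). For Gzmb they were Crabp2 (0.96), Gins2 (0.958) and Ap1ar (0.954), and for Cd8b1 Pigt (0.967), Bri3bp (0.964) and Snora70 (0.957). The genes nearest to Cd8a were Fam43a, Pirt and Il20rb, to Ccl5 Foxi3, Gm10575 and Gm715, and to Fasl Bysl, Tgfb1 and Sesn3, with r between 0.89 and 0.985. None of these 24 genes passed the threshold. With 11926 genes and 8 arrays, high values of r arise readily, and all points share the same arrays.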

How the data were processed

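Gene expression was measured on Affymetrix whole-transcript arrays, 4 KO-labelled and 4 WT-labelled, grouped by sample title. The authors deposited 1 log2 value per probe set and array, and RMA and Partek are named, per the submitters' processing notes, with versions and order of steps not given in the sources used here. RMA as usually run makes the arrays' distributions nearly equal, which hides any shift in the RNA content of the cells. The number of arrays limits the precision. Medians over 35556 probe sets were 7.35 to 7.42.

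In the platform annotation 21789 probe sets had a single symbol, 1621 had more, and 12146 were absent. Of those with 1 symbol, 21698 matched the RefSeq gene table (GRCm38.p6). For each of 19938 genes the probe set with the highest mean was kept, and 11926 genes above the 40th percentile of the array (over probe sets with 1 symbol) in at least 4 arrays were tested, Bcl6 being kept whatever its level. The KO minus WT contrast was fitted in R 4.3.3 using limma 3.58.1 (lmFit, eBayes, two-sided, no block) with Benjamini-Hochberg adjustment and a threshold of 0.05. Single genes also had an exact permutation test. Of these steps only the limma fit was run on simulated data, with independent noise of equal spread in every array, and its outcome is not given here.

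From each related list, the named genes are up to 2 rises and 2 falls past the threshold, or else the tested gene with the smallest p; all 8 members, Bcl6 and the 3 genes most like each member are named too. Members and lists were chosen with earlier results of these data known. The fit was repeated with array weights, with limma's trend and robust options, with the replicate number as a block, after a repeated quantile step or centring on array medians, with all genes or those over the 50th percentile, with probe sets averaged, without each array, and at thresholds of 0.01 and 0.1. Leaving out KO replicate 1 and WT replicate 3 together was added after the data were seen.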

Additional observations from a re-analysis of the deposited data

Results flagged for a closer look

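Of 104 groups of 4 values, 7 held a value well separated from the rest of its group, where about 5% of groups would by chance. None of these 7 groups belonged to the 8 genes of the CD8 and cytotoxic set. In WT replicate 1, Tnfsf10 was 7.88 (the others 8.08 to 8.11), Il23r 9.42 (9.86 to 9.95), Gm10575 7.97 (7.79 to 7.81) and Bysl 10.56 (all others 10.65). In KO replicate 3, Xcl1 was 7.15 (7.46 to 7.49). In KO replicate 1, Pirt was 7.81 (7.42 to 7.46), and in WT replicate 3, Il20rb was 8.60 (8.39 to 8.42).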

How the results depend on the processing

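Nkg7, Ctsw, Prf1 and Gzmb kept the sign of their difference under all 17 alternatives, with ranges of -1.05 to -0.59, -0.63 to -0.41, -0.57 to -0.33 and 0.21 to 0.59. With array weights 3 of the 8 genes passed (Ctsw, Nkg7 and Prf1, limma adjusted p of 0.0037, 0.00613 and 0.00911), where 16.6% of all tested genes passed. With the intensity trend and robust prior together 1 passed (Ctsw, 0.0379), and at a threshold of 0.1 2 passed. Without single arrays 0 or 1 passed, the 1 being Ctsw without WT replicate 4. Under the other alternatives 0 passed, the replicate block included.

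All genes past the threshold numbered 157, 77 higher and 80 lower. The number was 338 with repeated quantile normalization (189 higher, 149 lower), 78 with centring on the median (48 and 30), 58 without a filter (37 and 21), 354 with the intensity trend and robust prior together, 1980 with array weights, 36 with the replicate block (25 and 11), 27 and 468 at thresholds of 0.01 and 0.1, 443 without KO replicate 1 and WT replicate 3, and 31 to 782 without single arrays. The highest was without KO replicate 1. The cause was not tested.

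Signs turned when single arrays were left out for Cd8a (-0.14 to 0.09), Cd8b1 (-0.04 to 0.12), Cd4 (-0.03 to 0.03), Fam43a (-0.09 to 0.01), Pirt (-0.12 to 0.05), Il20rb (-0.08 to 0.02), Pigt (-0.01 to 0.06), Bri3bp (-0.05 to 0.03), Snora70 (-0.03 to 0.13), Gm10575 (-0.18 to 0.01) and Sesn3 (-0.01 to 0.04). Bri3bp also turned to 0.00 with repeated quantile normalization and to 0.05 without KO replicate 1 and WT replicate 3, and Sesn3 to -0.03 with array weights. The calls of Bcl6, Tox and Id2 were lost with the replicate block (limma adjusted p = 0.0606, 0.104 and 0.119) and without a filter (0.0595, 0.0791 and 0.103), those of Tox and Id2 also with centring on the median (0.056 and 0.0589), and that of Tox without KO replicate 1 and WT replicate 3 (0.0538). Deviations from the group means of same-numbered arrays correlated at 0.011, 0.145, -0.174 and 0.308, so the numbers were not taken as a pairing.

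Signal close to background limits Cd8a, Ccl5 and Fasl, which the filter at the 50th percentile removed.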

Other observations

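Cd8b1 minus Cd8a, the distance between both CD8 chains on the same array, was 1.76 to 2.57 in KO-labelled and 2.02 to 2.49 in WT-labelled arrays and overlapped. Cd8a lay near background, so no relation between the chains can be read from this distance. Cd160 and Klrd1, receptors of CD8 T and NK cells chosen after their values were seen, were not tested because they exceeded the 40th percentile in only 3 and 0 of the 8 arrays. Cd160 was 6.89, 6.84, 6.82 and 6.89 in the KO-labelled arrays, against 6.91, 7.60, 7.12 and 7.28 in the WT-labelled arrays. Klrd1 was 5.48, 5.35, 5.59 and 5.52 in the KO-labelled arrays, against 5.75, 5.95, 6.14 and 5.65 in the WT-labelled arrays. Neither overlapped between groups, and both are near background. A gap in that direction was seen in 7.66% of tested genes, a set that excludes both. The share among untested genes was not counted. All other untested genes of the CD8 T cell and NK cell lists had overlapping groups, with differences from -0.33 (Klrc1) to 0.08 (Klrc2).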
